A study of Mus musculus with 2 samples.

Results

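The enzymes of the urea cycle and of amino acid breakdown were followed in mouse liver after squalene feeding. The list held 54 genes, and 49 of them were read, out of 12393 genes with a probe set of their own on the array. A gene was read when at least 1 probe set carried its symbol and no other, and its brightest probe set, by mean log2 signal over both pools, stood for it. Gls2, Acmsd, Sds and Amt were not analysed here, and neither was Ass1, whose probe set is annotated with a second symbol. All mice were apolipoprotein E-deficient males on a C57BL/6J/ OLA129 background, labelled as 2 months old, fed chow and given a drink of 1% glycerol for 10 weeks. The squalene pool also received squalene, an intermediate of cholesterol synthesis, in that drink at 1 g per kg per day, and the control pool received none. Each pool was hybridised to 1 array, no source used here gives the number of animals in it, and so every ratio below compares 2 RNA pools with no test between them.

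The liver takes up many dietary amino acids, though not all to the same extent, and strips their nitrogen, which periportal hepatocytes turn into urea through the urea cycle. Nitrogen that escapes is captured as glutamine by a narrow band of hepatocytes around the central vein. The carbon skeletons pass through separate routes, aromatic, tryptophan, branched-chain, histidine, glycine and others, to intermediates that feed glucose synthesis, ketone bodies or the citric acid cycle. Many of these enzymes are under the control of glucagon, glucocorticoids and feeding.

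The values are MAS5 signals, intensities on a linear scale from Affymetrix arrays. The array median was 41.5 in the squalene pool and 40 in the control pool, and the 75th percentile was 164.9 and 158.2. Of the 49 genes, 44 reached the 75th percentile in both pools, called bright here, and Mccc1 reached the median in both. Kynu, Afmid, Mccc2 and Asns had a signal below the median in at least 1 pool. The SD of the log2 ratio between bright probe sets of a gene was 0.19 over 957 genes, which was the only measure of error these arrays hold. It was 0.38 for 775 genes with probe sets between the median and the 75th percentile, and 1.63 for 2188 genes with dimmer ones. The SD covers probe sets reading the same pair of RNA pools and leaves out differences between animals. Of 3431 bright genes 59.1% had a log2 ratio within 0.2 of 0, so a ratio past the SD of 0.19 was common among bright genes. All 18 hybridization spike-ins lay below 0, with a median log2 ratio of -0.26, and scaling to them would add 0.26 to every ratio below. Apoe read 130.6 in the squalene pool and 141.0 in the control pool on 1 probe set, which does not check the deletion, since no source used here says which part of the gene it covers.

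Hepatocyte genes were read strongly in both pools, as Alb shows with 14625.1 in the squalene pool and 16656.0 in the control pool. The 8 hepatocyte markers read had a median log2 ratio of -0.09. Kupffer cell and macrophage markers were lower in the squalene pool, with 11 of 11 below 0, a median of -0.68 and a summed signal of 4475.5 in the squalene pool against 6851.1 in the control pool. In whole liver, fewer cells of a type and less RNA per cell cannot be told apart. Endothelial markers had a median of -0.18 over 8 genes and stellate cell markers -0.11 over 8. Of those that reached the array median in both pools, 7 endothelial markers had a median of -0.17, with 5 below 0. The 4 such stellate cell markers had a median of -0.39, with 3 below 0. No kidney marker of 7 reached the array median in both pools, and of 7 exocrine pancreas markers 2 did, Cela1 (-0.31) and Prss2 (-0.40). The part of these markers in the results below was not tested.

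Most amino acid enzymes read nearly alike in both pools, and those that stood apart were mostly higher with squalene. On the log2 scale, 36 of the 49 lay above 0 and 13 below, with a median of 0.06, beside 51.1% above 0 and a median of 0.01 over all genes. The ratios of 35 genes (71.4%) lay within 0.2 of 0, beside 31.2% of all genes. Among bright genes the shares were closer, 75% of the bright members and 59.1% of all bright genes. None of the 49 passed 1.5, the size the submitters used as their screen, a size that 15.2% of all genes passed in either direction. Beyond a band of 0.5, 2 members were higher, Dbt and Prodh, and 0 were lower. Over all genes 21.5% were higher and 19.8% lower beyond that band, but most of those are dim.

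Among genes that reached the array median in both pools the shares past the band were 7.84% higher and 6.34% lower, and among bright genes 3.93% and 3.24%. The 44 bright members held 2 higher and 0 lower, a share near that of bright genes in general. The bright members had a median of 0.06 and an SD of 0.21 among themselves, beside 0.28 for 3387 other bright genes. Of the bright members 72.7% lay above 0, against 49.4% of the other bright genes. When the arrays were scaled to the spike-ins, 10 members passed the band upwards and 0 downwards, beside 33.3% and 14.3% of all genes, and only Gldc and Amdhd1 then stayed below 0. After loess or quantile normalization 4 were higher, Dbt, Prodh, Aass and Tat, and 0 lower, beside 19.4% higher and 21.4% lower over all genes after loess and 19.6% and 21.2% after quantile normalization.

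**Figure D1:**
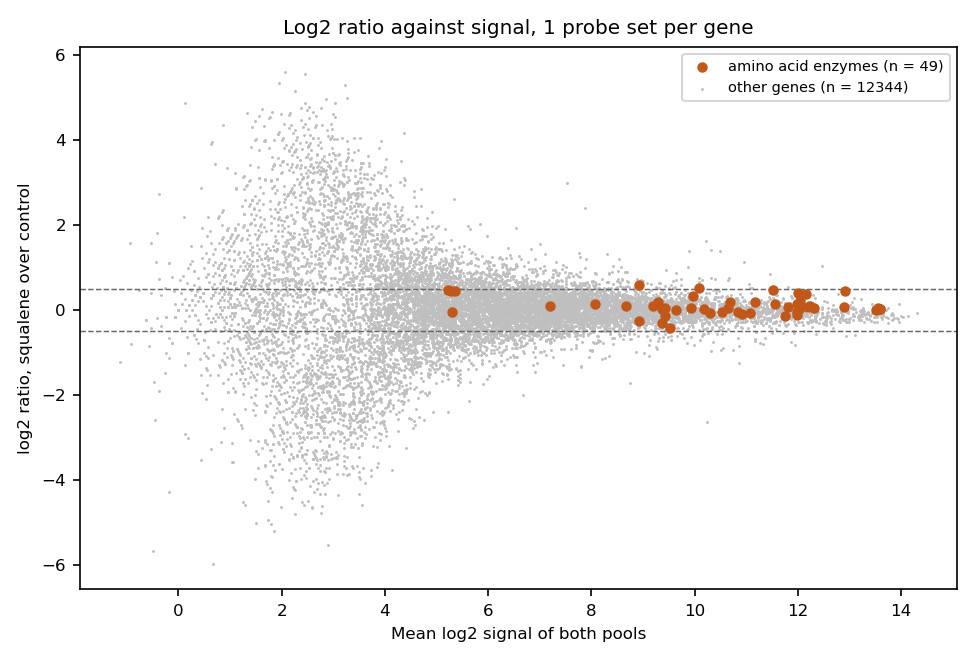
Log2 ratio of the squalene over the control pool (vertical) against the mean log2 signal of both pools (horizontal), 1 point per gene, with the 49 amino acid enzymes in orange and 12344 other genes in grey. Dashed lines mark 0.5 in either direction, and 2 enzymes lie above the upper line and 0 below the lower one.

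**Figure D2:**
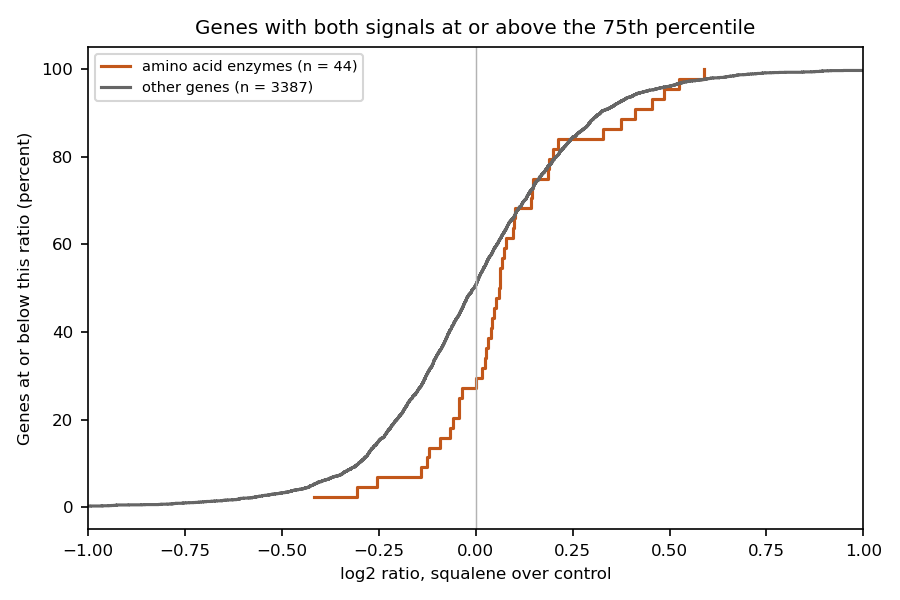
Percent of genes (vertical) with a log2 ratio at or below the value on the horizontal axis, for 44 bright amino acid enzymes (orange) and 3387 other bright genes (grey). The enzymes' curve lies to the right of the other on the negative side, with a median of 0.06 and 72.7% of the enzymes above 0.

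The ratios ran over the order of the members in steps smaller than the SD of 0.19. No member lay between 0.22 and 0.32, limits picked from these values. Above 0.3 were 7 bright members, Dbt, Prodh, Aass, Tat, Got1, Asl and Bckdhb, each read by a single probe set, and 3 dim ones, Kynu, Mccc2 and Afmid. Of the 44 bright members 35 lay within 0.3 of 0, beside 2684 of 3431 bright genes, a nearly equal share. At the other end 2 bright members lay below -0.3, Amdhd1 and Gldc, and Pccb stood at -0.25. Over all genes 29.8% were above 0.3 and 26.7% below -0.3, and the shares of bright genes in each direction were not counted.

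Promoter windows are shown for members at both ends of this order and for Asns, the standard amino acid response gene, to show the sequence around the starts of these transcripts. Each runs from 250 bases before to 50 bases after the start of the gene, 5′ to 3′ on the gene's strand, from RefSeq on GRCm38.p6. Windows were found for 42 of the 49 members. Capitals mark matches, on either strand, to the CCAAT box (CCAAT), the C/EBP-ATF composite element (TGATGCAA) and the nutrient-sensing response element 1 (TGATGAAAC). Prodh lies at chr16:18089141-18089440 on the minus strand, Aass at chr6:23132937-23133236 minus, Tat at chr8:109990186-109990485 plus, Got1 at chr19:43524556-43524855 minus, Gldc at chr19:30175392-30175691 minus and Asns at chr6:7693160-7693459 minus.
Prodh: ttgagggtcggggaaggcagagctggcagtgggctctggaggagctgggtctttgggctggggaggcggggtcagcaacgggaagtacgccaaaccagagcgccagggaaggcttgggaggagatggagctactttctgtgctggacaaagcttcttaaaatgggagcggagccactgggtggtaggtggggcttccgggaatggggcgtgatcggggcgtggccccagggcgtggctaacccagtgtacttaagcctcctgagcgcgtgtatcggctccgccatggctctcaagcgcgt
Aass: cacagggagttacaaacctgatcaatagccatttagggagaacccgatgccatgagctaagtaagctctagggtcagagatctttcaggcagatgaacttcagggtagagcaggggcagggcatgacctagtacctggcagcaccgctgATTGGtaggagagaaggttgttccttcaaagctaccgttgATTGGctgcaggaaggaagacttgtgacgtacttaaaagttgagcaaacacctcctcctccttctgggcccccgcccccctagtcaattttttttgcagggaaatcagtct
Tat: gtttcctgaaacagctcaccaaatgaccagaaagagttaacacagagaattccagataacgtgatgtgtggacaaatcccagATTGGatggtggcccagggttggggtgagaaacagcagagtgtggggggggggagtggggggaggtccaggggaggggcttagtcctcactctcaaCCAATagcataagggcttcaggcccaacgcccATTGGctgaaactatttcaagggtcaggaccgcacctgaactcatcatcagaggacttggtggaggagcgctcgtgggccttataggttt
Got1: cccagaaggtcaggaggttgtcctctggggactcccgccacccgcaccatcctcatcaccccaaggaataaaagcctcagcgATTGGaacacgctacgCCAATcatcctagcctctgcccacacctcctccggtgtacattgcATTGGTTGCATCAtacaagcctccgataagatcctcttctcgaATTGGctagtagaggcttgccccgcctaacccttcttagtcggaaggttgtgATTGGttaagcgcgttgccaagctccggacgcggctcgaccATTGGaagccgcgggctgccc
Gldc: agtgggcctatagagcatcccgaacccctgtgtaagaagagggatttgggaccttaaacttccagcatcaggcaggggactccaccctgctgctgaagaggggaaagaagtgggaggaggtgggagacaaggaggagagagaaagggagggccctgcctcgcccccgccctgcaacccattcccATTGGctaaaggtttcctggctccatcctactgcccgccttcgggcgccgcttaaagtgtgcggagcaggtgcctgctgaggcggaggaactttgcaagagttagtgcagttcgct
Asns: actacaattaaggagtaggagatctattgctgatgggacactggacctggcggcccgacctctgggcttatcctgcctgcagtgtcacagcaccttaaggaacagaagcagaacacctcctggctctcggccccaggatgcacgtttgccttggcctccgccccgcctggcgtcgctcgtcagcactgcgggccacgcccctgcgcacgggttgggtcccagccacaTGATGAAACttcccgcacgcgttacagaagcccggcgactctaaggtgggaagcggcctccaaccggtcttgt

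The Got1 window held the composite element on its minus strand, beginning 102 bases before the start and adjoining a CCAAT box without overlap, with 6 CCAAT boxes in all. The Asns window held the nutrient-sensing element 23 bases before its start, an element described in human ASNS as a site of ATF4. The Prodh window held none of the motifs searched, and the Aass, Tat and Gldc windows held 2, 3 and 1 CCAAT boxes. Over all 32851 windows of the table, 0.895% held TGATGCAA, 0.247% held TGATGAAAC and 37.4% held CCAAT. Among the 46 windows of members, 1 held TGATGCAA, 1 held TGATGAAAC and 25 (54.3%) held CCAAT. The E-box CACGTG, bound by clock and other bHLH factors, was found in 1 of the 46, that of Mccc2, against 7.15% of all windows. The D-boxes TTATGTAA and TTACGTAA and the cAMP response element TGACGTCA were found in 0 of the 46, against 0.938%, 0.119% and 1.79% of all windows. The TATA box TATAAA was found in 6 of 46, against 13.6%. The members' windows had a median GC content of 57.2%, against 52.7% over all windows.

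In the urea cycle, the signals of both pools lay close together except for Asl. Cps1, the mitochondrial enzyme that fixes ammonia as carbamoyl phosphate, read 11770.9 in the squalene pool and 11643.4 in the control pool, a log2 ratio of 0.02. Nags, which makes the activator that Cps1 needs, read 424.3 in the squalene pool and 396.1 in the control pool (0.10). Otc, which joins carbamoyl phosphate to ornithine, read 3894.6 in the squalene pool and 4230.5 in the control pool (-0.12). These 3 mitochondrial steps thus lay within the SD of 0.19. Asl, which splits argininosuccinate into arginine and fumarate in the cytosol, read 5191.6 in the squalene pool against 4001.0 in the control pool, 1.30-fold higher (0.38). Arg1, which releases urea, read 12545.8 in the squalene pool and 12277.3 in the control pool (0.03). The median of the 5 genes was 0.03. Otc had a second bright probe set at 0.09 and a dimmer one at 0.65 (78.1 in the squalene pool, 49.8 in the control pool).

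**Figure D3:**
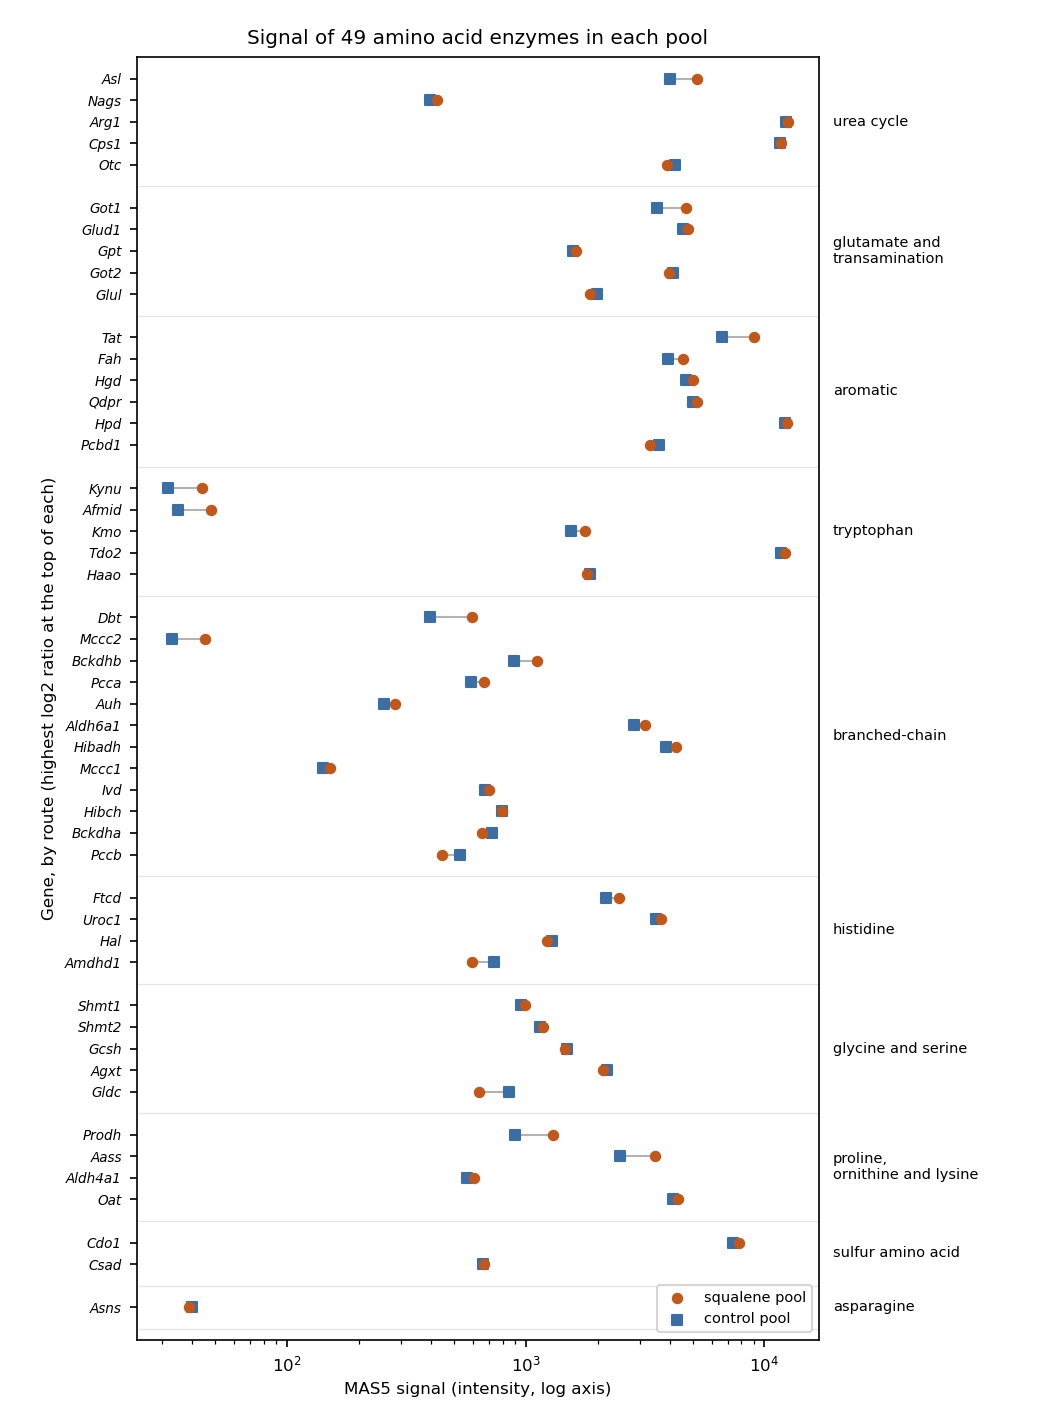
MAS5 signal on a log axis (horizontal) of the 49 enzymes, grouped by route, in the squalene pool (orange circles) and the control pool (blue squares), with 1 array per pool and no error bars. Most pairs overlap, and the widest bright pairs with the squalene pool higher are Dbt, Prodh and Aass, while Gldc is the widest with it lower.

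Among the 5 members that move nitrogen through glutamate, Got1 was the one beyond the SD between probe sets. Got1, the cytosolic aspartate aminotransferase, read 4705.1 in the squalene pool and 3538.6 in the control pool, 1.33-fold higher (0.41). Its mitochondrial counterpart Got2 read 3999.2 in the squalene pool and 4121.7 in the control pool (-0.04), with a second probe set at 0.13. The cytosolic form was thus higher by more than the SD between probe sets, as many bright genes differed, and the mitochondrial form was within it. Gpt, an alanine aminotransferase, stood at 0.04, and Glud1, which releases ammonia from glutamate, at 0.07 and -0.05 on its probe sets. Glul, the glutamine synthetase of the pericentral band, read 1863.5 in the squalene pool and 1985.3 in the control pool (-0.09), and 0.07 on its other probe set. The median of the 5 genes was 0.04.

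Hepatocyte genes of both lobular zones were centred near 0. The 12 pericentral markers read had a median of -0.01 with 6 above 0 and 6 below, and the 10 periportal markers read, Hal among them, had a median of -0.06 with 3 above and 7 below. Slc1a2, in the pericentral list, read 69.1 in the squalene pool and 42.3 in the control pool (0.71). These signals lie not far above the array medians, where the SD between probe sets was 0.38. Ctsc, in the periportal list, stood at -0.39. Aldh1b1, also in the periportal list, read 217.0 in the squalene pool and 122.3 in the control pool (0.83).

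In the breakdown of phenylalanine and tyrosine Tat had the largest ratio, followed by Fah. Tat, the tyrosine aminotransferase and a classical target of glucocorticoids, read 9063.9 in the squalene pool and 6618.8 in the control pool, 1.37-fold higher (0.45). Hpd, which makes homogentisate, read 12418.4 in the squalene pool and 12199.1 in the control pool (0.03). Hgd, which opens the homogentisate ring, stood at 0.10. Fah, the last enzyme, read 4568.8 in the squalene pool and 3941.3 in the control pool (0.21), slightly past the SD. The enzymes that recycle the pterin cofactor of phenylalanine hydroxylase stood on either side of 0, with Qdpr at 0.05 and 0.18 on its probe sets and Pcbd1 at -0.13. The median of the 6 genes was 0.07.

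The 2 highest ratios of the tryptophan route came from dim genes. Tdo2, the tryptophan dioxygenase that opens the route, read 12203.4 in the squalene pool and 11688.6 in the control pool (0.06), and 0.05 on its other probe set. Kmo, a hydroxylase of the outer mitochondrial membrane, read 1768.5 in the squalene pool and 1540.8 in the control pool (0.20), just past the SD. Haao, which leads toward NAD synthesis, stood at -0.04. Kynu, the kynureninase, read 43.9 in the squalene pool and 31.5 in the control pool (0.48), and Afmid, the formamidase, 48.0 in the squalene pool and 35.0 in the control pool (0.46). Both were dimmer than the array median in the control pool, and at such signals the SD between probe sets was 1.63. The median of the 5 genes was 0.20, and 0.06 without the 2 dim ones.

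Branched-chain amino acid breakdown held the largest log2 ratio of the 49 genes, in Dbt. Dbt, the transacylase core of the branched-chain ketoacid dehydrogenase, read 596.5 in the squalene pool and 396.7 in the control pool, 1.50-fold higher (0.59). Of the 2 subunits of its decarboxylase, Bckdhb lay past the SD between bright probe sets and Bckdha within it. Bckdhb read 1118.5 in the squalene pool and 890.0 in the control pool (0.33), and Bckdha 657.4 in the squalene pool and 724.7 in the control pool (-0.14). All 3 were read by 1 probe set each. Dld, the lipoamide dehydrogenase shared with other complexes, stood at 0.12, and Bckdk, the kinase that inhibits the complex, at -0.06.

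The bright mitochondrial steps after that complex lay within the SD of 0.19 on their brightest probe sets, except Pccb. Mccc1 and the dim Mccc2 lay within the SDs for their signal, 0.38 and 1.63. On the leucine branch, the brightest probe set of Ivd stood at 0.06 and the other at 0.61 (304.4 in the squalene pool, 199.1 in the control pool), so the 2 bright readings of this gene disagree by more than the SD. Mccc1, the biotin subunit of methylcrotonyl-CoA carboxylase, stood at 0.09, its partner Mccc2, dim in the control pool, at 0.46 (45.4 in the squalene pool, 33.0 in the control pool), and the hydratase Auh at 0.15. On the valine branch, Hibch stood at 0.00, with a dimmer probe set at 0.44 (97.7 in the squalene pool, 71.9 in the control pool). Hibadh stood at 0.14 and, on a second bright probe set, at -0.10, and Aldh6a1 at 0.15. The 2 subunits of propionyl-CoA carboxylase, where valine and isoleucine carbon meet, stood on opposite sides of 0. Pcca read 669.9 in the squalene pool and 588.5 in the control pool (0.19), and Pccb 443.5 in the squalene pool and 528.9 in the control pool (-0.25). Over the 12 branched-chain genes 10 lay above 0, with a median of 0.14.

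Histidine breakdown, which yields glutamate, had 2 genes above 0 and 2 below. Hal, the histidase, stood at -0.07 and Uroc1, the urocanase, at 0.07, with a dimmer probe set at -0.03, all well within the SD. Amdhd1, the imidazolonepropionase after them, read 592.2 in the squalene pool and 732.4 in the control pool, 1.24-fold lower (-0.31). Ftcd, which passes the last carbon to folate, read 2459.2 in the squalene pool and 2156.9 in the control pool (0.19). The median was 0.00, and -0.05 over probe sets with the plain suffix, where Uroc1 was below 0 too.

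The glycine and serine route had the lowest log2 ratio of all 49 genes, in Gldc. Gldc, the decarboxylase of the mitochondrial glycine cleavage system, read 637.7 in the squalene pool and 851.5 in the control pool, 1.34-fold lower (-0.42). Gcsh, the lipoyl carrier of the same system, read 1453.2 in the squalene pool and 1488.5 in the control pool (-0.03), within the SD. Agxt, which clears glyoxylate in peroxisomes, stood at -0.06. The serine hydroxymethyltransferases Shmt1, cytosolic, and Shmt2, mitochondrial, stood at 0.05 and 0.04 on their brightest probe sets. Other bright probe sets of Shmt1 stood at 0.28, 0.52 and -0.04, so the bright readings of this gene disagree by more than the SD. The median of the 5 genes was -0.03, the lowest of the routes with more than 1 gene, but with plain-suffix probe sets it was 0.00 and that of histidine, at -0.05, was lower.

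**Figure D4:**
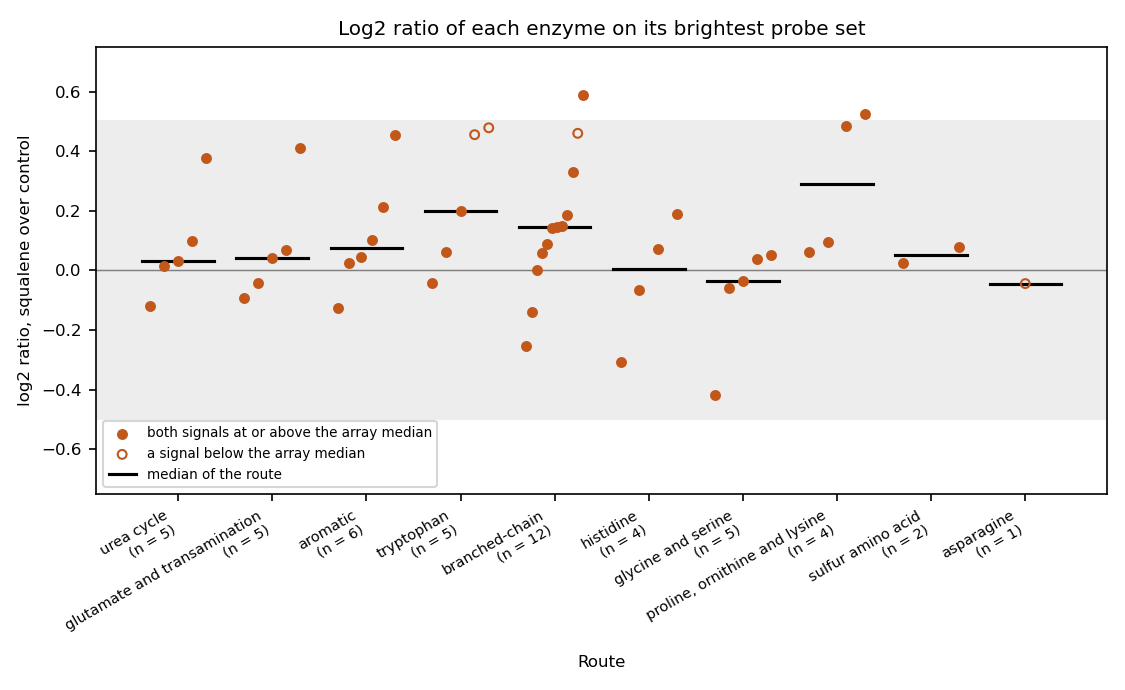
Log2 ratio of the squalene over the control pool (vertical) for each enzyme on its brightest probe set, by route (horizontal, with the number of genes). Bars are route medians, the grey band spans 0.5 to either side of 0, and open circles are genes with a signal below the array median. The proline, ornithine and lysine group has the highest median (0.29), with no gene near it.

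Proline, ornithine and lysine breakdown, grouped here as 1 route, had the highest median, 0.29 over 4 genes, all above 0. No gene lay near that median, and the rank depends on the grouping. Without Aass, the lysine enzyme, the median would be that of Aldh4a1, 0.10, below the 0.14 of the branched-chain route. Prodh, the inner-membrane enzyme that starts proline oxidation, read 1302.2 in the squalene pool and 904.6 in the control pool, 1.44-fold higher (0.53). Aass, the bifunctional enzyme that starts lysine breakdown in mitochondria, read 3477.7 in the squalene pool and 2483.1 in the control pool, 1.40-fold higher (0.49). Aldh4a1, a step that both proline and ornithine carbon pass, stood at 0.10, and Oat, the ornithine aminotransferase, at 0.06. Prodh and Aass differed by more than the SD between probe sets, and Aldh4a1 and Oat by less.

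Sulfur amino acid breakdown and asparagine synthesis made up the rest. Cdo1, which oxidises cysteine, stood at 0.08 and Csad, which leads on to taurine, at 0.02. Asns, which makes asparagine and is induced by ATF4 when amino acids are short, read 38.7 in the squalene pool and 39.9 in the control pool (-0.04), below the array median in both. A dimmer probe set of Asns read 1.9 in the squalene pool and 22.7 in the control pool (-3.58). At this signal no difference in Asns can be shown. The RNA of the ATF4 gene itself, Atf4, read 638.9 in the squalene pool and 633.5 in the control pool. The arrays do not measure ATF4 protein or its activity.

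Of the 49 genes, 14 had more than 1 probe set, and in 9 of them the probe sets took both signs, mostly near 0. Within the 10 genes that had several bright probe sets the SD was 0.19, as over all genes. Shmt1 ranged from -0.04 to 0.52 over 4 probe sets, all bright. The widest spreads came from dim probe sets. The dimmest probe set of Shmt2 read 61.2 in the squalene pool and 7.4 in the control pool (3.05), and a dim one of Auh 9.1 in the squalene pool and 1.2 in the control pool (2.92), while the brightest of each stood at 0.04 and 0.15.

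**Figure D5:**
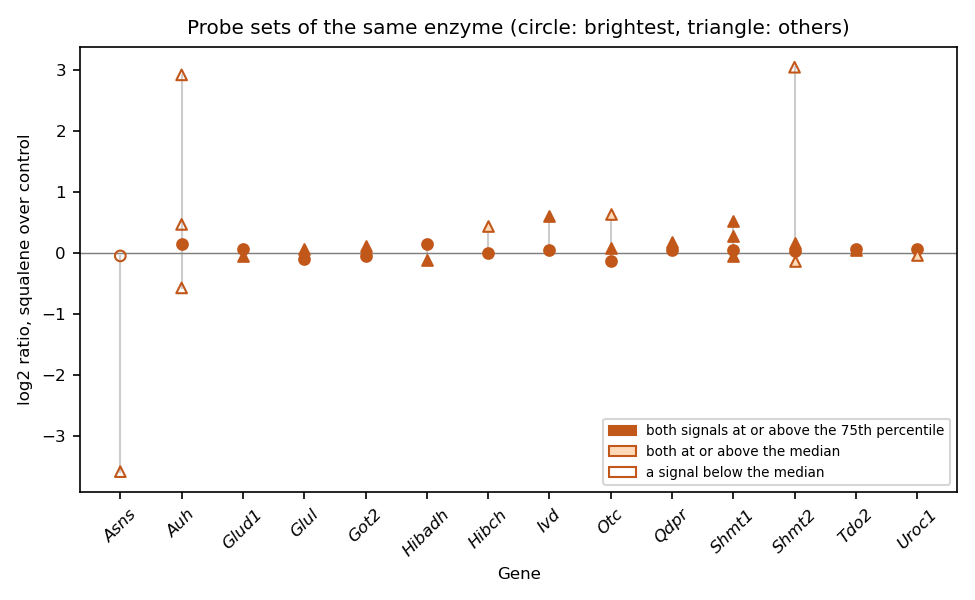
Log2 ratio of the squalene over the control pool (vertical) for every probe set of the 14 enzymes that have more than 1 (horizontal). Circles are the brightest probe set of a gene and triangles the others, with the fill giving the signal class, and the values beyond 2 in either direction, in Asns, Auh and Shmt2, are all from probe sets with a signal below the array median.

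By compartment the enzymes looked alike. The 25 mitochondrial members had 19 above 0 and 6 below, and the 23 cytosolic ones 17 above and 6 below. The SD of the ratios was 0.24 in mitochondrial and 0.21 in cytosolic members. Both members past 0.5, Dbt and Prodh, are mitochondrial. At the top of the signal range, 50 genes had both signals at or above 10000, and 40 of these lay below 0. The 4 members among them, Cps1, Arg1, Hpd and Tdo2, all lay above 0, from 0.02 to 0.06.

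Other enzymes and carriers of amino acid metabolism, from a list of 53 genes with 40 read, had 3 higher, 5 lower and 32 within 0.5, beside 21.5% and 19.8% of all genes, and a median of -0.02. The 32 of them that reached the array median in both pools had 3 higher and 1 lower, with a median of 0.06, beside 7.84% and 6.34% of all such genes. Gpt2, the mitochondrial alanine aminotransferase, read 2640.1 in the squalene pool and 1734.5 in the control pool (0.61). Mpst, a sulfurtransferase, read 180.8 in the squalene pool and 90.1 in the control pool (1.00). Ddc, the aromatic amino acid decarboxylase, read 537.5 in the squalene pool and 829.0 in the control pool (-0.63). The ornithine carrier Slc25a15 stood at 0.06 and the aspartate-glutamate carrier Slc25a13 at 0.33. These genes, like the members, showed no common direction of the size of the band.

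Amino acid transporters of the plasma membrane had 2 higher, 1 lower and 9 within 0.5 of 12 read, with a median of 0.19, beside 21.5% higher and 19.8% lower over all genes. Of the 8 that reached the array median in both pools 2 were higher and 0 lower, beside 7.84% and 6.34%. Slc7a2, a cationic amino acid transporter that brings in arginine, ornithine and lysine, read 559.1 in the squalene pool and 297.8 in the control pool, 1.88-fold higher (0.91). Slc38a2, which carries small neutral amino acids, read 1540.5 in the squalene pool and 1115.3 in the control pool (0.47).

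Of 16 regulators of amino acid breakdown that were read, 4 were higher, 1 lower and 11 within 0.5, with a median of 0.18, beside 21.5% higher and 19.8% lower over all genes. The lower one, Atf3 (-1.65), was dim, and of the 13 that reached the array median in both pools 3 were higher and 0 lower, beside 7.84% and 6.34%. Ppargc1a, a coactivator of fasting gene programmes, read 221.3 in the squalene pool and 74.8 in the control pool (1.56). Foxo3 stood at 0.87 and Foxo1, which mediates the fasting response, at 0.60. Klf15, a factor known to control amino acid breakdown in liver and muscle, read 1023.1 in the squalene pool and 864.7 in the control pool (0.24). Hnf4a, a main hepatocyte factor, stood at -0.13 and Nr3c1, the glucocorticoid receptor, at 0.01.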

How the data were processed

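Liver RNA of 2 pools was measured on 1 Affymetrix array each. The authors deposited 1 linear intensity per probe set, computed with MAS5 per the submitters' processing notes. No source used here gives the software version, scaling target or detection calls. Of 22690 probe sets, 64 were array controls and 20380 of the others carried 1 gene symbol in the platform annotation, and 691 carried several and were not named. All 49 member symbols matched RefSeq by Entrez number.

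The log2 ratio of squalene over control was taken with no pseudocount and no filter. A band of 0.5 and the submitters' screen of 1.5 served to count genes. With 1 array per group no test was possible, and the number of arrays limits the precision. Members, routes and other lists were chosen with earlier results of these data known, and the compartment lists and the CCAAT and TATA motifs were added after the values were seen. Members beyond 0.5, the extremes of each route, all urea cycle genes and up to 3 well-read genes of each other list were named by rule. Further genes named from those lists (Atf3, Atf4, Klf15, Hnf4a, Nr3c1, Dld, Bckdk, Slc25a15 and Slc25a13) and the dim probe sets of Asns, Auh and Shmt2 were chosen after their values were seen.

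The scripts were tested on simulated data with planted ratios. Python 3.11.15, numpy 2.4.6, pandas 2.3.3 and matplotlib 3.10.9 were used, with limma 3.58.1 in R 4.3.3 for loess.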

Additional observations from a re-analysis of the deposited data

How the results depend on the processing

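Each ratio rests on 1 array per pool, so no variation between animals is measured, and dim genes (Kynu, Afmid, Mccc2, Asns) are limited by signal near background. No paired analysis was possible because each group has 1 array. The median of the members lay above 0 under all 11 alternatives of processing, from 0.05 with centring on all genes to 0.32 with scaling to the spike-ins. Dbt and Prodh stayed above 0.5 in each of them. Both have a single, bright probe set, so the choice of probe set, the signal floor and the signal filters could not change their ratios. With all probe sets of a gene averaged, 4 members were higher (Auh and Shmt2 joined, through dim probe sets), 1 was lower (Asns, -1.81, also past 1.5), so 1 member passed the screen, beside 23.6% of all genes higher and 20.4% lower. Quantile normalization and loess each gave 4 higher, beside 19.6% and 19.4% of all genes. Scaling to the spike-ins gave 10 higher, and raised the route medians to 0.29 (urea cycle), 0.30 (glutamate), 0.33 (aromatic), 0.46 (tryptophan), 0.40 (branched-chain), 0.26 (histidine), 0.22 (glycine and serine), 0.55 (proline, ornithine and lysine), 0.31 (sulfur) and 0.21 (asparagine), because it adds 0.26 to every ratio. A band of 0.3 gave 10 higher and 2 lower, against 29.8% and 26.7% of all genes. A band of 1.0 gave 0 higher and 0 lower, against 11.9% and 11.1%.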
